A study of Mus musculus with 47 samples.

Results

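The primitive streak and mesendoderm regulators examined here are 10 genes: T (also written Tbxt), Eomes, Tbx6, Gsc, Mixl1, Evx1, Lhx1, Mesp1, Foxa2 and Wnt3. They were taken by symbol, and all 10 were found among the 24507 genes of the tables for unsorted embryonic stem cells (ESCs) and embryoid bodies (EBs) and among the 26182 genes of the tables for sorted ESCs. Their RNA was followed in 20 libraries that form 10 groups of 2. Cells of E14Tg2A, a mouse ESC line, received a small interfering RNA against Tdg (siTdg) or a control RNA (siC). Each was read at 48 h and 96 h, in ESCs sorted into a G2M and a G1 fraction, and in EBs at day 11 that were grown from transfected cells. The groups are thus EB day 11 siTdg and siC, 48 h siTdg and siC, 96 h siTdg and siC, G2M siTdg and siC, and G1 siTdg and siC. All ESCs were kept without serum in N2B27 with leukemia inhibitory factor, the MEK inhibitor PD0325901 and the GSK3 inhibitor CHIR99021, so every group shares an origin in cells held under MEK and GSK3 inhibition. The design text defines a label SG2M as cells in S, G2 and M. Whether the ESC fraction labelled G2M leaves out S phase is not given in the sources used here. All groups come from a single cell line, and EBs are mixed aggregates. The labels do not say whether the 2 libraries of a group were grown apart, so a p-value here reflects library-to-library spread that could be technical alone.

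Gastrulation in the mouse begins when Nodal, BMP and Wnt signals induce the primitive streak at the posterior of the epiblast, and cells that pass through it become mesoderm or definitive endoderm. Wnt3 is the ligand that starts this process. T and Eomes are T-box transcription factors turned on by Wnt and Nodal signals, Mixl1, Gsc, Evx1 and Lhx1 are homeodomain factors of the streak and its anterior end, Mesp1 marks the earliest cardiac and cranial mesoderm, Tbx6 acts in paraxial mesoderm, and Foxa2 is a forkhead factor of the anterior streak, node and endoderm. ESCs held under MEK and GSK3 inhibition are regarded as close to the naive epiblast, a stage before the streak forms, and T is a well known target of the Wnt pathway that CHIR99021 activates. The product of Tdg, thymine DNA glycosylase (TDG), belongs to base excision repair and removes oxidised forms of 5-methylcytosine from DNA.

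Libraries held 20818174 to 41433232 reads counted to genes. Tdg was measured first as a check of the labels. In siTdg cells it stood at 7.34 and 13.2 RPKM (reads per kilobase of gene, scaled for sequencing depth) at 48 h, against 46.0 and 43.4 RPKM in siC cells. In the G2M fraction it stood at 12.3 and 8.63 RPKM with siTdg, against 61.6 and 63.1 RPKM with siC, and in the G1 fraction at 9.64 and 7.53 RPKM with siTdg, against 54.8 and 59.6 RPKM with siC. The log2 difference at 48 h was -2.12, with an unadjusted p of 0.00032 and an adjusted p of 1.00 by limma and an adjusted p of 0.000176 in the authors' deposited table, so a difference of that size in Tdg itself was not called at 48 h by the test used here. At 96 h the libraries overlapped, with 28.2 and 40.3 RPKM in siTdg cells against 35.8 and 46.0 RPKM in siC cells. In EBs they overlapped too, with 37.3 and 43.7 RPKM after siTdg against 35.1 and 38.5 RPKM after siC. Comparisons at 96 h and in EBs therefore concern cells whose Tdg RNA was near the control level when they were harvested. The summed level of 10 pluripotency markers was 29.7 to 117 RPKM in the 4 EB libraries and 3778 to 8042 RPKM in the 16 ESC libraries, and that of 9 cardiac muscle markers was 180 to 779 RPKM in EBs and 8.86 to 22.6 RPKM in ESCs.

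The 10 genes were a low-expressed group. Only Eomes, Gsc and T averaged above 1 RPKM over the 16 ESC libraries, and only Foxa2 did so over the 4 EB libraries. Summed over the 10, their level was 2.90 to 5.45 RPKM in EBs and 9.66 to 12.7 RPKM in ESCs. The tables of unsorted ESCs at each time, of EBs and of sorted cells were each scaled separately by the authors, which puts a library at 0.814 to 1.17 times a plain scale of total reads, so levels across tables are set side by side with no test. In bulk RNA, fewer cells of a type and less RNA per cell cannot be told apart.

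Eomes, a T-box factor needed for mesoderm delamination and definitive endoderm, was the highest of the group in sorted ESCs. It stood at 9.43 and 6.86 RPKM in G2M siTdg cells and at 9.74 and 7.88 RPKM in G2M siC cells, then at 7.95 and 6.70 RPKM in G1 siTdg cells and at 9.58 and 7.77 RPKM in G1 siC cells. Unsorted ESCs held less, with 3.70 and 4.27 RPKM at 48 h after siTdg against 3.73 and 4.26 RPKM after siC. The 96 h libraries held 2.09 and 2.81 RPKM after siTdg against 2.44 and 2.93 RPKM after siC. In EBs it was under 0.5 RPKM, with 0.424 and 0.208 RPKM after siTdg against 0.265 and 0.303 RPKM after siC. In the order of group means, the 4 sorted groups came first, then the 48 h groups, the 96 h groups and the EB groups, and library ranges were separate at each of these 3 steps but overlapped between neighbours within them.

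Gsc, which encodes the homeodomain repressor Goosecoid of the anterior streak and organizer, was highest in unsorted ESCs. At 48 h it stood at 5.07 and 3.63 RPKM after siTdg, against 5.73 and 4.82 RPKM after siC, and at 96 h it stood at 4.29 and 5.66 RPKM after siTdg, against 4.51 and 5.35 RPKM after siC. Sorted cells held 1.71 and 3.58 RPKM in G2M siTdg cells, 1.82 and 2.54 RPKM in G2M siC cells, 2.02 and 3.15 RPKM in G1 siTdg cells and 1.63 and 2.37 RPKM in G1 siC cells. EBs held 0.276 and 0.188 RPKM after siTdg against 0.179 and 0.365 RPKM after siC. The 4 unsorted ESC groups, the 4 sorted groups and the 2 EB groups followed in that order with no overlap from each block to the next. Eomes and Gsc thus ran in opposite order between sorted and unsorted ESCs, Eomes being higher in the sorted cells and Gsc in the unsorted ones. On a plain scale of total reads the order was the same. Eomes was then at least 6.63 RPKM in sorted cells and at most 4.41 RPKM in unsorted ESCs. Gsc was at least 3.74 RPKM in unsorted ESCs and at most 3.55 RPKM in sorted cells. Sorting, harvest and the table they stand in differ together between those libraries and cannot be told apart.

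T, the founding T-box gene and a regulator of posterior mesoderm and notochord, reached 1 RPKM only in unsorted ESCs. At 48 h it stood at 2.32 and 1.90 RPKM after siTdg, against 1.60 and 1.54 RPKM after siC. The 96 h libraries were spread more widely, with 2.72 and 0.650 RPKM after siTdg against 3.57 and 0.995 RPKM after siC. In both groups at 96 h the library numbered 1 was the high one, by 4.18 times in siTdg cells and 3.59 times in siC cells. Sorted ESCs held 0.416 and 0.572 RPKM in G2M siTdg cells, 0.366 and 0.574 RPKM in G2M siC cells, 0.325 and 0.534 RPKM in G1 siTdg cells and 0.352 and 0.702 RPKM in G1 siC cells. EBs held 0.116 and 0.567 RPKM after siTdg against 0.113 and 0.497 RPKM after siC. In the order of means, the 4 unsorted ESC groups came first. Between neighbours in that order, only the step from the 48 h siC group to the sorted G1 siC group was free of overlap. Unsorted and sorted ESCs still overlapped, with 0.650 RPKM in a 96 h siTdg library against 0.702 RPKM in a G1 siC library.

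Foxa2 was the only member above 1 RPKM in all 4 EB libraries. It stood at 2.50 and 1.10 RPKM after siTdg, from 275 and 47 reads, and at 2.84 and 1.02 RPKM after siC, from 321 and 45 reads. In ESCs it lay between 0.0140 and 0.109 RPKM, from 1 to 8 reads a library. Evx1, a homeodomain factor of the posterior streak, followed it in EBs with 1.14 and 0.0960 RPKM after siTdg and 0.977 and 0.112 RPKM after siC. In ESCs Evx1 ran from 0.00979 to 0.473 RPKM with a median of 0.119 RPKM. RefSeq places a noncoding gene, Evx1os, over Evx1, and use of strand in the authors' counting is not given in the sources used here, so reads of the pair cannot be told apart. Evx1os itself had 0 to 0.999 RPKM over the 20 libraries.

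The other members stayed under 1 RPKM in every library. Tbx6 had 0.214 and 0.193 RPKM in EBs after siTdg, from 17 and 6 reads, against 0.465 and 0.625 RPKM after siC, from 38 and 20 reads. In ESCs Tbx6 ran from 0 to 0.197 RPKM. Wnt3 ran from 0.155 to 0.447 RPKM in EBs and from 0.0632 to 0.270 RPKM in ESCs, and RefSeq lets it overlap Wnt9b, which had at most 0.0734 RPKM. Mixl1 ran from 0.0468 to 0.264 RPKM in EBs and from 0.149 to 0.566 RPKM in ESCs. Lhx1, which encodes a factor of the anterior streak and its mesendoderm, ran from 0 to 0.173 RPKM in EBs and from 0 to 0.0303 RPKM in ESCs, with no read in 7 of the 20 libraries. Its RPKM rest on a length of 4154 bases in the tables of sorted cells and 2750 bases in the others. Mesp1 never had more than 3 reads and had none in 5 libraries, among them all 4 at 48 h, where a count of 0 allows up to 0.0785 to 0.0985 RPKM (3 reads a library, counting error only).

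**Figure D1:**
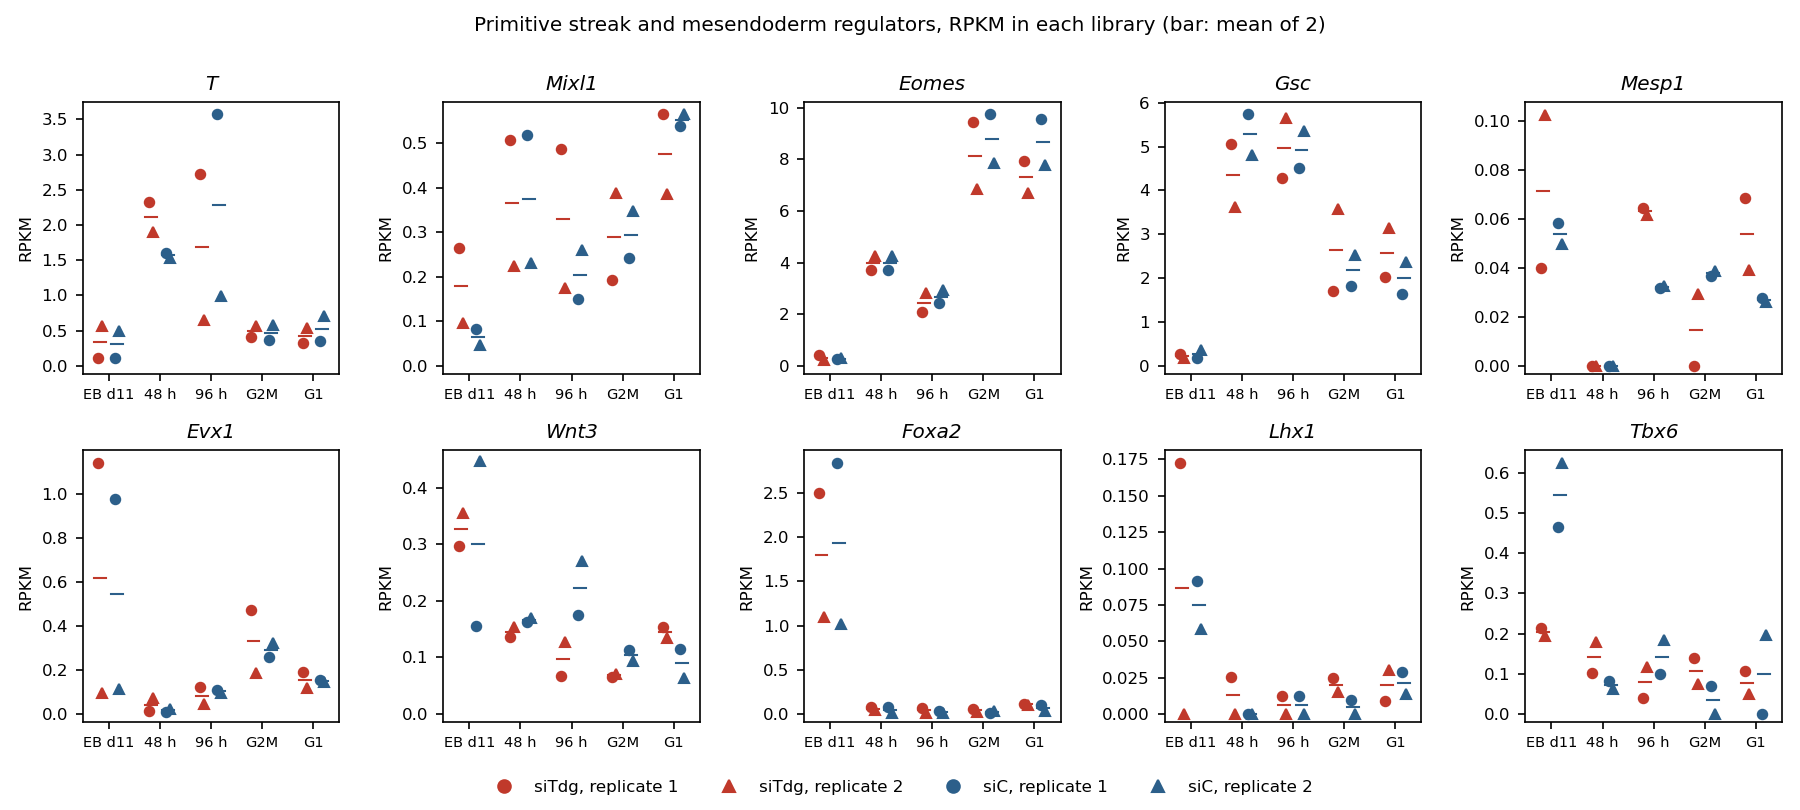
RPKM (vertical axes, linear, each gene on its own scale) of the 10 genes in the 20 libraries. Groups run along the horizontal axis with siTdg in red left of siC in blue, circles are replicate 1, triangles replicate 2 and bars the mean of 2. Eomes peaks in the sorted fractions and Gsc at 48 h and 96 h, Foxa2 exceeds 1 RPKM only in EBs, and T at 96 h splits by replicate number in both groups.

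TDG acts on modified cytosines, which in mammals lie mostly at CG dinucleotides, so the CG content of the members' promoters is shown with their levels. RefSeq on GRCm38.p6 gave 11 windows of 300 bases, from 250 before to 50 after a gene start, for 9 of the 10 genes, with 3 starts for Foxa2. Mixl1 was not among them. The windows of the 3 genes expressed in ESCs, of Mesp1 and of Lhx1 are printed 5′ to 3′ on the gene's strand with CG in capitals, because they span the levels and the CG counts of the group.
Eomes, chr9:118477939-118478238, plus strand: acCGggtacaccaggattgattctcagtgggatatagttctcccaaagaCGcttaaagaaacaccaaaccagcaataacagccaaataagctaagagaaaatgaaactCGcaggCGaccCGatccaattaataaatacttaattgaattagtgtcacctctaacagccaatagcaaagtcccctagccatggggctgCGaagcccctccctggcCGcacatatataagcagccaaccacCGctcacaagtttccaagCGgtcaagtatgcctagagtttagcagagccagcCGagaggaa
Gsc, chr12:104473187-104473486, minus strand: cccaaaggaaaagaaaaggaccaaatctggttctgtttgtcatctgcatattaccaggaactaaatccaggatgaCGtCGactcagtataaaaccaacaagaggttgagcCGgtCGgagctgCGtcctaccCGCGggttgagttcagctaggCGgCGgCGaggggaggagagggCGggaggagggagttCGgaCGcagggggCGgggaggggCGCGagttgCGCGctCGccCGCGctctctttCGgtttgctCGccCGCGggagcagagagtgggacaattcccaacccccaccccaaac
T, chr17:8434173-8434472, plus strand: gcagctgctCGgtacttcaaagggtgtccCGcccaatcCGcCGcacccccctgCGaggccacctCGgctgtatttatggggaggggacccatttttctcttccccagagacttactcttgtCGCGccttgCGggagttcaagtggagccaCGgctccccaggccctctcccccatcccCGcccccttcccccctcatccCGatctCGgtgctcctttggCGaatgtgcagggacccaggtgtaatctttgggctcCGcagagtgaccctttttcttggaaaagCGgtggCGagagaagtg
Mesp1, chr7:79793541-79793840, minus strand: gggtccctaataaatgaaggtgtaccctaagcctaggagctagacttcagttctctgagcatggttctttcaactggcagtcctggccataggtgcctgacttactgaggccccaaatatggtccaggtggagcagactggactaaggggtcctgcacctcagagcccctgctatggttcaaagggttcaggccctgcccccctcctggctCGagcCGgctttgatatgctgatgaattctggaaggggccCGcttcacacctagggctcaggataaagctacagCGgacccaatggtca
Lhx1, chr11:84525485-84525784, minus strand: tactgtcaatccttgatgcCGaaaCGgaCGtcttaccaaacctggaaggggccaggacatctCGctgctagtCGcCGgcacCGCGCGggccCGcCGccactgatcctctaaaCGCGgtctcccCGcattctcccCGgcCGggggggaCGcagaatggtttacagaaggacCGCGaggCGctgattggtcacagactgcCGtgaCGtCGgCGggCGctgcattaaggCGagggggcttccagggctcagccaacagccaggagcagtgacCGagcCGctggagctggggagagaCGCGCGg

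The 11 windows held 4 to 31 CG, with a median of 13, against a median of 7 over all 32851 promoters of the table. Lhx1 had the most with 31, a count reached by 10.6% of all promoters, and Mesp1 had the fewest with 4, which 68.6% of promoters reach. Both genes were at or near 0 RPKM. Eomes, the highest in RPKM, had 10 CG, a count reached by 43.5% of promoters, while Gsc had 25 and T had 17. The CG count therefore did not order the members by level. Wnt3 had 24 CG, Evx1 12, Tbx6 7 and the starts of Foxa2 12, 23 and 13.

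**Figure D2:**
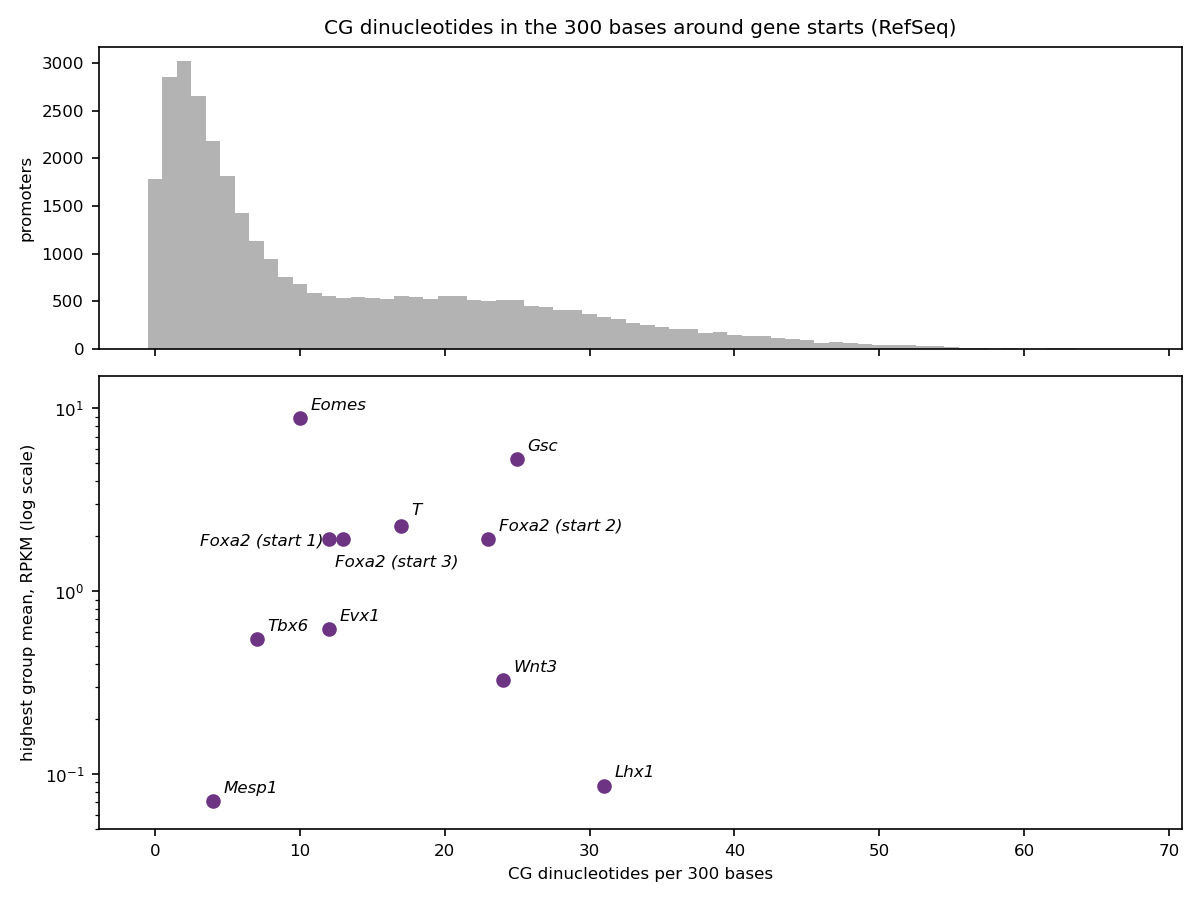
Upper panel, number of RefSeq promoter windows (vertical axis) by CG dinucleotides in 300 bases (horizontal axis). Lower panel, the highest group mean of each member in RPKM on a log axis against the CG count of its window, with the 3 starts of Foxa2 apart, where Eomes sits at 10 CG and Lhx1 at 31 CG near the bottom.

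Motifs were searched on both strands of the same windows. The TCF/LEF motif CTTTGAT, by which the effectors of Wnt signalling bind DNA, was in 3.73% of all promoters. It was in the window of Mesp1, starting 31 bases before the gene start. In the window of the third start of Foxa2 it lay on the opposite strand, from base 15 of the gene. The T-box motif GGTGTGA was in 3.98% of promoters and, on the opposite strand, in Mesp1. The FOXH1 motif AATNCACA, FOXH1 being a partner of Smad proteins in Nodal signalling, was in 3.60% of promoters and in no member's window. The TATA box was searched only as the exact letters TATAAA, so variants such as TATATAAG in the Eomes window were not counted. TATAAA was in 13.6% of promoters and in the windows of Tbx6, Gsc and the third start of Foxa2. Its match began 43 bases before the gene start in Tbx6 and 164 before in Gsc. In Foxa2 it was on the opposite strand, 208 bases before the start. No matches of these motifs overlapped one another, and a match describes letters only.

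At 48 h the design asks what Tdg knock-down does to these genes in ESCs. None of those tested passed. The 3 members with a mean of at least 0.5 RPKM over the 8 unsorted ESC libraries were tested with limma on log2(RPKM + 0.5), and 0 of the 3 passed an adjusted p of 0.05, where 0% of the 12190 genes tested passed and 54 had an unadjusted p under 0.05. The other tool run, limma-voom on reads recovered from RPKM, also called 0 genes at 48 h, at 96 h, between the times and in EBs. None of these fits had a term for replicate number. With that term more genes were called in every comparison, but no member, as given in the last section. T averaged 2.11 ± 0.300 RPKM after siTdg and 1.57 ± 0.0418 RPKM after siC (SD, n = 2 each), a log2 difference of 0.33 with a 95% interval of -1.10 to 1.76. Its libraries did not overlap, both siTdg values being the higher. Eomes averaged 3.99 ± 0.402 RPKM after siTdg and 4.00 ± 0.377 RPKM after siC, a log2 difference of -0.0033 with an interval of -0.53 to 0.52. Gsc averaged 4.35 ± 1.02 RPKM after siTdg and 5.28 ± 0.648 RPKM after siC, a log2 difference of -0.26 with an interval of -0.85 to 0.32, and its libraries overlapped. Of 9 members with any read at 48 h, 3 had libraries that did not overlap between groups, where 19.7% of 18786 genes with reads did so. T and Tbx6 were the higher ones after siTdg, a direction that 9.13% of genes shared, and Wnt3 was the lower one, as were 10.6% of genes.

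At 96 h no member tested passed either. T averaged 1.68 ± 1.46 RPKM after siTdg and 2.28 ± 1.82 RPKM after siC (SD, n = 2 each), a log2 difference of -0.36 with an interval of -1.79 to 1.07. With 1 library left out the sign could turn, the difference being 0.38 without replicate 2 of the siTdg cells and 0.36 without replicate 1 of the siC cells. Those fits left unequal replicate numbers in the groups. Between same-numbered libraries T differed by -0.34 for number 1 and by -0.38 for number 2. Eomes differed by -0.12 with an interval of -0.64 to 0.40, and Gsc by 0.0061 with an interval of -0.58 to 0.59. None of these 3 passed at 96 h, as 0% of 12190 genes did, with 11 at an unadjusted p under 0.05. The difference between the effects at 96 h and at 48 h was tested directly. For T it was -0.69, with an interval of -2.71 to 1.33 and an adjusted p of 1.00 by limma. It turned to 0.053 and 0.033 without the same libraries, which again left replicate numbers unequal. It was -0.12 for Eomes and 0.27 for Gsc, and again 0% of 12190 genes passed, with 15 at an unadjusted p under 0.05.

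Wnt3 was the member with the smallest unadjusted p at 96 h once the filter on low values was dropped. It had 0.0670 and 0.128 RPKM after siTdg, from 6 and 12 reads, against 0.175 and 0.270 RPKM after siC, from 16 and 24 reads, so that both siTdg libraries were below both siC libraries. The log2 difference was -0.27 with an interval of -0.48 to -0.065, and limma gave an unadjusted p of 0.018 and an adjusted p of 1.00. Mesp1, from 2 reads in each siTdg library and 1 in each siC library, was the other member without overlap at 96 h, where 12.7% of 18798 genes with reads did not overlap, 5.7% being higher after siTdg, like Mesp1, and 6.98% lower, like Wnt3.

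In day 11 EBs the comparison asks whether EBs grown from siTdg cells differed in these genes, and no member passed the test. Foxa2 averaged 1.80 ± 0.996 RPKM after siTdg and 1.93 ± 1.29 RPKM after siC (SD, n = 2 each), a log2 difference of -0.040 with an interval of -1.62 to 1.54. Evx1 averaged 0.618 ± 0.738 RPKM after siTdg and 0.544 ± 0.612 RPKM after siC, a log2 difference of 0.057 with an interval of -1.91 to 2.02. These were the 2 members that passed the filter, and 0 of the 2 were called, where 0% of 13300 genes were, with 20 at an unadjusted p under 0.05. The intervals are wide enough that changes of 2-fold or more in either direction lay inside them. The fit had no term for replicate number, so its spread includes the differences between libraries 1 and 2 given below. Between same-numbered libraries, 1 and then 2, the log2 difference was -0.15 and 0.073 for Foxa2 and 0.15 and -0.037 for Evx1.

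Tbx6 and Mixl1 were the members whose EB libraries did not overlap, 2 of 10, where 12% of 19905 genes with reads did not overlap, 6.18% being higher after siTdg, like Mixl1, and 5.77% lower, like Tbx6. The Tbx6 values given above were lower in both siTdg libraries than in both siC libraries, with a log2 difference of -0.57 and an interval of -1.01 to -0.12. Without the filter limma gave Tbx6 an unadjusted p of 0.024 and an adjusted p of 1.00. In the authors' deposited table its log2 change was -1.38 with a standard error of 0.895, a p-value of 0.123 and no adjusted p. Mixl1 had 0.264 and 0.0966 RPKM after siTdg, from 28 and 4 reads, against 0.0824 and 0.0468 RPKM after siC, from 9 and 2 reads, and its log2 difference was 0.26.

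The EB libraries stood apart by replicate number for several members. Evx1 was higher in library 1 than in library 2 by 11.9 times after siTdg and by 8.74 times after siC. Foxa2 was higher in library 1 by 2.28 times after siTdg and by 2.79 times after siC. T went the other way, library 2 being higher by 4.89 times after siTdg and by 4.41 times after siC, from 11 to 21 reads a library. Wnt3 was also higher in library 2 of each group. Mixl1 was higher in library 1 by 2.73 times after siTdg and by 1.76 times after siC, and Lhx1 was higher in library 1 of each group too. Gsc, Eomes, Mesp1 and Tbx6 had no common direction.

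Markers of other cell types stood apart by the same numbers. The 8 blood and endothelium markers summed to 54.2 and 747 RPKM in libraries 1 and 2 after siTdg, against 36.1 and 334 RPKM after siC. The 10 visceral endoderm and yolk sac markers summed to 232 and 512 RPKM after siTdg against 114 and 311 RPKM after siC, and the 9 cardiac muscle markers to 180 and 779 RPKM after siTdg against 203 and 498 RPKM after siC. The 9 neural markers went the other way, with 20.7 and 4.31 RPKM after siTdg against 20.4 and 3.57 RPKM after siC. Over the 16 ESC libraries the neural list summed to 124 to 199 RPKM, led by Stmn2. The blood and endothelium list summed to 36.8 to 62.7 RPKM there, led by Pecam1. Neither sum is therefore particular to its cell type. The embryonic globin Hbb-bh1 alone had 4.24 and 413 RPKM after siTdg against 1.58 and 217 RPKM after siC. Library 2 of each group also held fewer reads, 20818174 after siTdg and 21775039 after siC, against 41433232 and 38825128 in library 1. None of the 5 marker lists had a gene at 0 in both libraries of an EB group. Between siTdg and siC, 9 of 10 tested visceral endoderm markers, 6 of 7 cardiac, 5 of 6 blood, 2 of 3 neural and 2 of 9 pluripotency markers were above 0 with none called, where 54.4% of all genes were above 0. Pluripotency markers, with a median log2 difference of -0.22, summed to 29.8 and 47.5 RPKM in libraries 1 and 2 after siTdg against 29.7 and 117 RPKM after siC. The highest visceral endoderm marker was Afp of the yolk sac, with 213 ± 109 RPKM after siTdg and 98.7 ± 41.2 RPKM after siC (SD, n = 2 each). The part of these differences in the values of Evx1, Foxa2 and T was not tested.

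**Figure D3:**
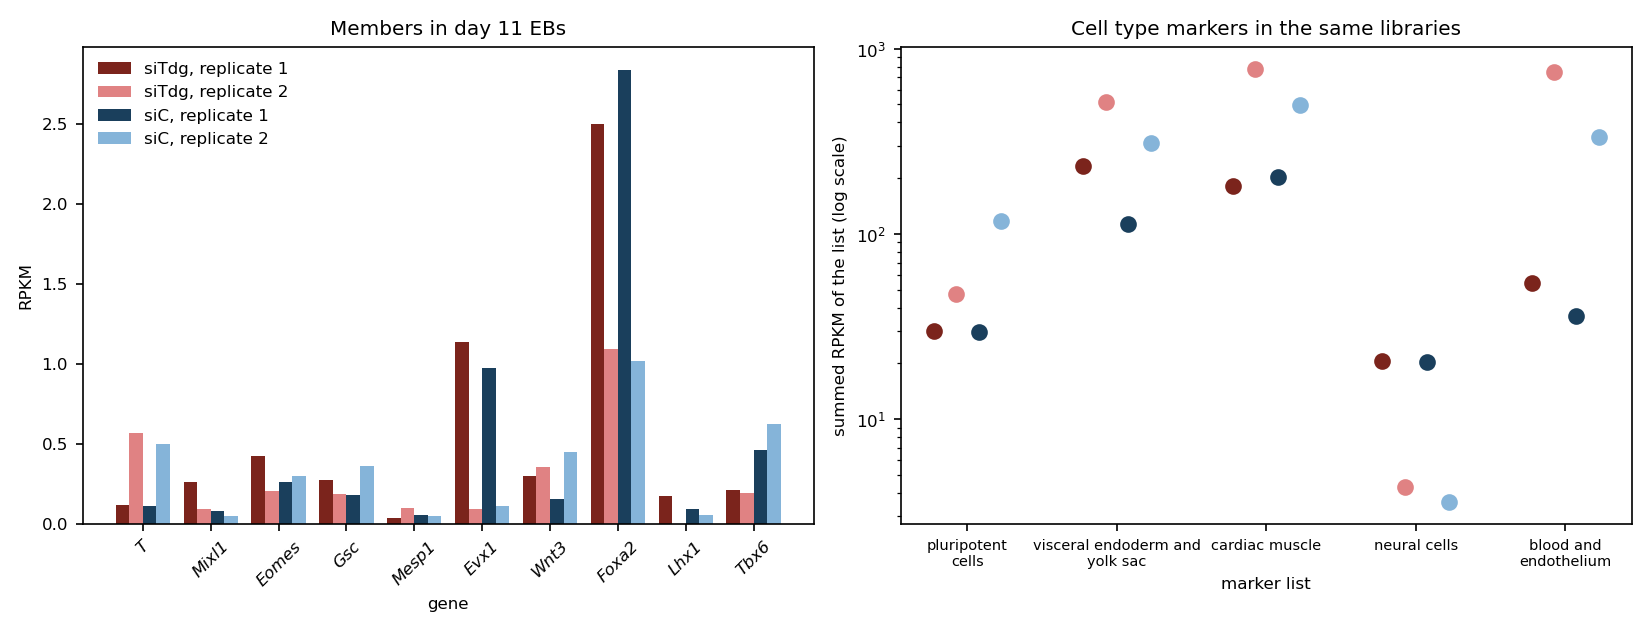
Left, RPKM of the 10 genes in the 4 EB libraries (bars, siTdg in reds left of siC in blues). Right, summed RPKM of 5 marker lists in the same libraries on a log axis, where replicates 1 and 2 stand apart in both groups for neural and blood markers, as they do on the left for Evx1, Foxa2 and T.

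The sorted fractions ask whether the genes depend on cell cycle phase. In siTdg cells Eomes averaged 8.15 ± 1.82 RPKM in G2M and 7.33 ± 0.882 RPKM in G1 (SD, n = 2 each), a log2 difference of 0.13 with an interval of -0.32 to 0.59. In siC cells it averaged 8.81 ± 1.32 RPKM in G2M and 8.68 ± 1.28 RPKM in G1, a log2 difference of 0.020 with an interval of -0.44 to 0.48. Gsc differed between G2M and G1 by -0.012 in siTdg cells, with an interval of -0.81 to 0.78, and by 0.098 in siC cells, with an interval of -0.70 to 0.89. These 2 members passed the filter and neither was called in siTdg cells, where 0.169% of 12462 genes were, or in siC cells, where 0.12% were. Eomes therefore had the highest level of the group in both fractions, with a phase difference smaller than the spread between libraries.

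Members under the filter were also read by phase. In siC cells Mixl1 had 0.241 and 0.348 RPKM in G2M, from 14 and 19 reads, against 0.537 and 0.566 RPKM in G1, from 41 and 46 reads, and the fractions did not overlap. In siTdg cells Mixl1 had 0.193 and 0.387 RPKM in G2M against 0.565 and 0.385 RPKM in G1, and the fractions overlapped. Without the filter its log2 difference was -0.31 in siTdg cells, with an adjusted p of 0.64 by limma, and -0.41 in siC cells, with an interval of -0.78 to -0.034 and an adjusted p of 0.60. Evx1 lay the other way, at 0.473 and 0.187 RPKM in G2M against 0.193 and 0.117 RPKM in G1 of siTdg cells, where the fractions overlapped by a narrow margin, and at 0.261 and 0.321 RPKM in G2M against 0.156 and 0.147 RPKM in G1 of siC cells. Wnt3 in siTdg cells had 0.0655 and 0.0711 RPKM in G2M against 0.154 and 0.135 RPKM in G1, with no overlap, a log2 difference of -0.18 and an adjusted p of 0.41, the lowest adjusted p of a member in this comparison.

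Fractions did not overlap for 3 of 10 members in siTdg cells, all lower in G2M, where 32.3% of 20009 genes with reads did not, 15.6% higher and 16.7% lower. In siC cells they did not for 5 of 10, with 2 higher and 3 lower in G2M, where 37.5% of 19966 genes did not, 17.8% higher and 19.6% lower. The members' counts are near those shares. Foxa2 and Mesp1 were among them in both kinds of cells. Foxa2 was lower in G2M each time, from 1 to 8 reads a library. Mesp1 was lower in G2M in siTdg cells, with 0 and 1 reads against 2 and 1 reads in G1. In siC cells Mesp1 had 1 read in each library of both fractions, so its higher RPKM in G2M came from the scaling of the libraries alone. The phase difference in siTdg cells minus that in siC cells was 0.11 for Eomes, with an interval of -0.53 to 0.76, and -0.11 for Gsc, with an interval of -1.24 to 1.02. It passed for 0% of 12462 genes, with 36 at an unadjusted p under 0.05 and 0 called by limma-voom.

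**Figure D4:**
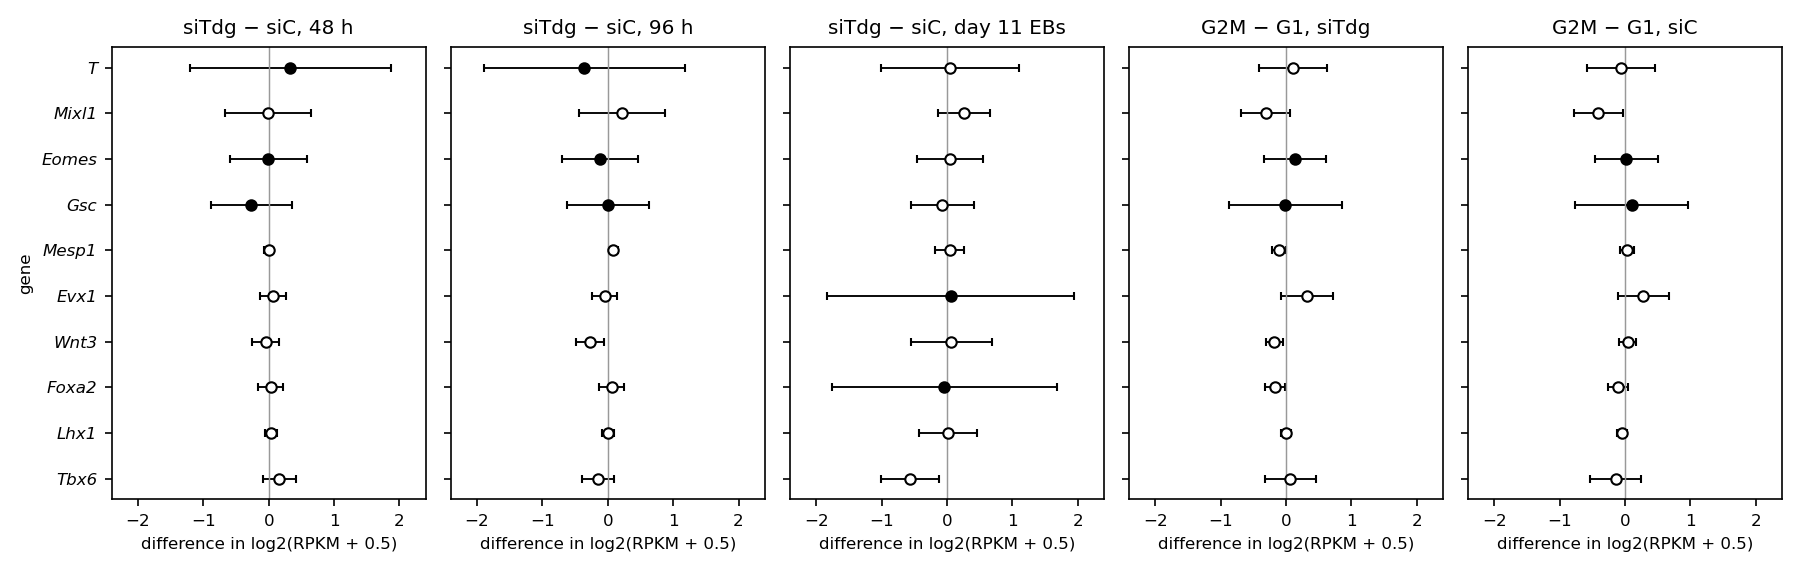
Differences in log2(RPKM + 0.5) (horizontal axes) of the 10 genes in 5 comparisons, from the limma fit without a filter, as points with 95% intervals. Filled points are genes that also passed the filter of 0.5 RPKM, and the filled ones all have intervals that cross 0, the widest being those of Evx1 and Foxa2 in EBs and of T at 48 h and 96 h.

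Within a fraction, siTdg and siC cells stand in separate tables and were compared on RPKM recomputed over total reads. In G2M, Eomes averaged 8.04 ± 1.75 RPKM in siTdg cells and 8.64 ± 1.30 RPKM in siC cells (SD, n = 2 each), a log2 difference of -0.11 with an interval of -0.58 to 0.37. In G1, Eomes averaged 7.50 ± 1.23 RPKM in siTdg cells and 8.92 ± 1.39 RPKM in siC cells, a log2 difference of -0.24 with an interval of -0.71 to 0.24. Gsc differed by 0.19 in G2M, with an interval of -0.59 to 0.97, and by 0.28 in G1, with an interval of -0.50 to 1.06. Neither was called in G2M or in G1, where 0.00802% of 12471 genes were, which is Tdg alone. Tdg fell by 2.53 in G2M (adjusted p = 0.047 by limma) and by 2.69 in G1 (adjusted p = 0.031) on the log2 scale, and without any 1 of the libraries compared neither call held, with 0 genes called. Libraries did not overlap for 4 of 10 members in G2M and 3 of 10 in G1, where 26.1% of 19772 and 25.9% of 20190 genes with reads did not. In G2M 2 members were higher with siTdg and 2 lower, as were 16.5% and 9.54% of genes, and in G1 all 3 were higher, as were 14.1% of genes, with 11.8% lower. Wnt3 was lower in G2M siTdg cells and higher in G1 siTdg cells than in their controls, with a log2 difference of -0.085 in G2M and 0.13 in G1, and it passed no test in either.

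The authors' deposited tables gave an adjusted p to few members, all above the threshold. Eomes had an adjusted p of 0.999 at 48 h, Eomes, Evx1 and Foxa2 had 1.00 in EBs, Eomes had 0.83 and Gsc 0.995 for G2M against G1 in siTdg cells, and Eomes had 0.96 in siC cells. The tables called 1.35% of genes with an adjusted p at 48 h, 0.144% at 96 h, 0.0745% in EBs, 5.02% between fractions of siTdg cells and 8.48% between fractions of siC cells.

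Genes around the members in the pathway were read from 6 lists with 86 genes. No gene of any list was called in any of the 9 comparisons, which is near the share over all genes. That share was 0.169% between fractions of siTdg cells and 0.12% between those of siC cells. It was 0.00802% for siTdg against siC in G2M and in G1, and 0% in the other comparisons. The absence of calls is therefore not particular to these lists. Among ligands and antagonists, Tdgf1, which encodes the Nodal co-receptor Cripto, was the highest in ESCs, averaging 308 ± 61.3 RPKM after siTdg and 274 ± 51.9 RPKM after siC at 48 h (SD, n = 2 each). In EBs Bmp4 took that place with 29.1 ± 15.1 RPKM after siTdg and 27.9 ± 7.79 RPKM after siC. Of the tested ligands and antagonists, 7 of 10 were above 0 at 48 h with a median log2 difference of 0.12, where 46.2% of all genes were above 0 with a median of -0.014. At 96 h it was 4 of 10 with a median of -0.061, where 51.3% of genes were above 0 with a median of 0.0041. In EBs it was 8 of 11 with a median of 0.21, where 54.4% were above 0 with a median of 0.020.

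Receptors and transducers of Nodal, Wnt, BMP and FGF signals included Ctnnb1, the gene of beta-catenin, at 263 ± 33.7 RPKM after siTdg and 273 ± 40.0 RPKM after siC at 48 h. In sorted cells 0 of 18 tested genes of this list were above 0 in siTdg against siC, in G2M with a median of -0.12, where 57.8% of all genes were above 0, and in G1 with a median of -0.20, where 48.2% were. None of the 18 passed the test in either fraction. Leaving out 1 siTdg library moved these counts. Without replicate 2 of G2M siTdg cells 7 of 18 were above 0 with a median of -0.018. Without replicate 2 of G1 siTdg cells 9 of 18 were above 0 with a median of -0.0041. Those fits left unequal replicate numbers in the groups, so they cannot show whether the pattern rested on 1 library. In unsorted cells 7 of 19 were above 0 at 48 h and 2 of 19 at 96 h, with medians of -0.051 and -0.12, and in EBs 7 of 17 were, with a median of -0.098.

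Genes that act after the streak were mostly low in ESCs. The streak-derived mesoderm list had 4 of 19 genes tested in unsorted ESCs, led by Cdx1, a posterior homeobox gene, with 29.1 ± 5.78 RPKM after siTdg and 26.4 ± 1.19 RPKM after siC at 48 h (SD, n = 2 each). In EBs it had 9 tested, led by Hand2, a heart and limb mesoderm factor, with 44.7 ± 15.4 RPKM after siTdg and 43.9 ± 1.18 RPKM after siC, and 3 of 9 were above 0 with a median of -0.020. Between the sorted fractions, 0 of its 7 tested genes were above 0 in G2M against G1 of siTdg cells, with a median of -0.27 where that of all genes was 0.020, and 2 of 7 were in siC cells, with a median of -0.33 where that of all genes was 0.021. Msgn1 and Cdx4, of the presomitic mesoderm and tail bud, had no read in any EB library. The definitive endoderm list had 9 of 10 genes tested in EBs, led by Gata6 with 46.7 ± 21.7 RPKM after siTdg and 45.4 ± 14.7 RPKM after siC, and 4 of 9 were above 0. In ESCs at 48 h it was led by Hhex, with 6.44 ± 0.415 RPKM after siTdg and 7.30 ± 1.35 RPKM after siC. The node and notochord list was led by Shh in EBs, with 1.48 ± 0.328 RPKM after siTdg and 2.20 ± 1.09 RPKM after siC, and Noto, a notochord gene, had no read there. In ESCs at 48 h the list was led by Chrd, which encodes the BMP antagonist chordin, with 0.885 ± 0.0592 RPKM after siTdg and 1.16 ± 0.0862 RPKM after siC. Among other T-box genes, Tbx3 led in ESCs with 41.7 ± 8.39 RPKM after siTdg and 43.5 ± 7.27 RPKM after siC at 48 h, and Tbx20, a heart gene, led in EBs with 17.8 ± 15.8 RPKM after siTdg and 15.5 ± 11.2 RPKM after siC. Next to Tbx20, T, Eomes and Tbx6 were low in EBs on the RPKM scale.

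Over the 20 libraries, Eomes, Gsc and Foxa2 were the members whose EB and ESC ranges were separate, and the ranges of the other 7 overlapped. The Pearson r of log2(RPKM + 0.5) between members ran from -0.87 for Gsc and Foxa2 to 0.81 for Foxa2 and Lhx1. It was 0.60 between Eomes and Gsc, 0.69 between T and Gsc and -0.83 between Eomes and Foxa2, but 0.078 between T and Eomes, 0.16 between T and Mixl1 and -0.30 between Eomes and Evx1. Among 12682 genes that reached 1 RPKM in at least 2 libraries, Slain1, Halr1 and Ina were most like Eomes, with r of 0.987, 0.985 and 0.984. Bhmt, Ndufv1 and Bhmt2 were most like Gsc, with r of 0.983, 0.983 and 0.982, and Ezh1, Zfp235 and Zdhhc4 were most like T, with r of 0.931, 0.924 and 0.917. Within the 16 ESC libraries alone these 9 values ran from 0.906 to 0.980. The points share 5 separately scaled tables and the split by cell state, and r is given as a description over these libraries.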

How the data were processed

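RNA of 20 libraries (2 in each of 10 groups, taken from sample titles) was analysed. Libraries were of the stranded total RNA kind, made after removal of ribosomal RNA, per the labels' protocols. The submitters' processing notes name TopHat, DESeq2 and build mm9, and neither counter nor annotation is given in the sources used here. The authors deposited RPKM values, scaled separately in each of 5 tables, beside log2 fold changes with standard errors, a score column of test statistics, p-values and adjusted p-values, and a signal column of mean normalised counts. The authors' signs at 48 h and 96 h are turned here to siTdg minus siC. A further 4 RPKM columns match no sample and were not used. Day 9 EB, DIP, ATAC and chromatin samples were not analysed here.

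RPKM values were turned back into reads, and 100% came out whole within 0.01 reads. Tests used limma 3.58.1 (R 4.3.3, eBayes with trend) on log2(RPKM + 0.5) and kept genes whose mean over the fit reached 0.5 RPKM, with p adjusted over all genes tested (Benjamini-Hochberg, threshold 0.05, two-sided). Fold changes on this scale understate changes of low genes. The fits pool the spread of 8 unsorted ESC, 8 sorted ESC or 4 EB libraries, and replicate number was not a term. Fits were also run on simulated data with known changes, and the share of those changes that they called is not given here. With 2 libraries against 2, an exact permutation test could not pass the threshold, so none is given. Libraries of a group were compared for duplicates by chi-square, which was at least 19.4 per degree of freedom, so all counted as separate.

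The members, lists and tests were chosen with earlier results of these data known. Named genes are the 10 members, Tdg, called genes of the lists, the gene of each list with the highest mean RPKM, and the 3 genes most like each of the 3 highest members. Msgn1, Cdx4, Noto and the library values of Hbb-bh1 were picked having seen them. The alternatives tried were a pseudocount of 0.1 or 1, a stricter or no filter, TMM or quantile scaling, no trend, a replicate block, limma-voom on recovered reads, only the groups compared, and each library left out. Promoter windows come from RefSeq (GRCm38.p6).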

Additional observations from a re-analysis of the deposited data

How the results depend on the processing

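No member was called under any of the 135 alternative settings of the 9 comparisons, the smallest adjusted p among them being 0.104. Of 313 member values under these settings, 274 kept their direction and 39 did not, and the cause was not tested. Reversals with all libraries kept were small. Eomes at 48 h was 0.018 after quantile normalization, 0.0034 with TMM factors and 0.027 by limma-voom. By limma-voom Gsc at 96 h was -0.016, Evx1 in EBs -0.016 and Eomes between fractions of siC cells -0.043, and the last was -0.010 after quantile normalization.

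Leaving out each library in turn moved log2 differences as follows. Eomes ran from -0.095 to 0.088 at 48 h, from -0.30 to 0.059 at 96 h, from -0.29 to 0.062 between the times, from -0.084 to 0.35 between fractions of siTdg cells, from -0.12 to 0.17 between fractions of siC cells, from -0.10 to 0.33 for the difference of these, and from -0.32 to 0.10 for siTdg against siC in G2M. T ran from -1.10 to 0.38 at 96 h and from -1.43 to 0.053 between the times. Gsc ran from -0.18 to 0.19 at 96 h, from -0.45 to 0.43 between fractions of siTdg cells, from -0.12 to 0.31 between fractions of siC cells, from -0.55 to 0.33 for the difference of these, and from -0.26 to 0.64 for siTdg against siC in G2M. In EBs Foxa2 ran from -0.61 to 0.53 and Evx1 from -0.58 to 0.79. The phase difference of Tdg in siTdg minus siC cells ran from -0.11 to 0.38. Where a library left its group with 1, that library was taken to vary like the others. Without 1 library, genes called numbered 0 to 1 in EBs, 0 to 8 between fractions of siTdg cells, 0 to 0 between those of siC cells, and 0 to 0 for siTdg against siC in G2M and in G1.

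Replicate number was shared between groups with no stated meaning, and the labels do not state a pairing. Over genes, deviations of same-numbered libraries went together in every pair of groups, with r from 0.60 to 0.95. The main fits leave this shared part in their spread. With a replicate block, genes called numbered 280 at 48 h, 15 at 96 h, 14 between the times, 150 in EBs, 1686 between fractions of siTdg cells, 1076 between those of siC cells, 1 for the difference of these, 196 for siTdg against siC in G1 and 27 in G2M. Without a filter they numbered 4 at 96 h, 4 between the times, 7 for the difference between phase effects, 6 in G1 and 3 in G2M. With only the groups compared they numbered 0 between fractions of siTdg cells, 3 between those of siC cells, 0 in G1 and 0 in G2M. In G2M a pseudocount of 0.1 gave 0, as did a fit without trend. Peaks near the members, within 10 or 50 kb, were not run for want of an annotation of their build. Depth limits the low members, of which Mesp1 never passed 3 reads a library.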
